A study of Mus musculus with 10 samples.

Results

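The chemokine system of wasting skeletal muscle was examined in mice bearing tumors of Lewis Lung Carcinoma (LLC), a line of mouse lung cancer cells that brings on cachexia. Members were all genes whose mouse symbol marks a chemokine ligand (Ccl, Cxcl, Xcl, Cx3cl), a chemokine receptor (Ccr, Cxcr, Xcr, Cx3cr) or an atypical chemokine receptor (Ackr). The symbol rule matched 63 of the 39179 genes in the count tables, and 3 annotated pseudogenes were left out, namely Ccl19-ps1 and Ccl19-ps3, with 0 counts in every library, and Cxcl11, a polymorphic pseudogene whose highest count in any library was 12. The 60 members comprised 37 ligands (23 CC, 12 CXC, 1 XC and 1 CX3C), 19 receptors and 4 atypical receptors.

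The tissue was the tibialis anterior, a fast muscle of the lower hind leg. The 4 Control mice had received buffer alone in both flanks, and the 6 LLC mice had received LLC cells at the same sites and carried the tumors for 23 days. Per the sample labels both groups were C57BL/6J and were injected at 10 weeks of age, whereas the series' design text gives C57BL/10 males, 8 weeks and 22 days. The tumors grew under the skin and not in the muscle. Each library came from 1 animal, and no transgene or deletion is named for either group.

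Chemokines are small secreted proteins, most of which bind heparan sulfate on cell surfaces and in matrix and guide leukocytes that carry the matching G protein-coupled receptor. CXC ligands with an ELR motif attract neutrophils through CXCR2, the eotaxins attract eosinophils through CCR3, and CXCL9 and CXCL10 attract activated T cells through CXCR3. Atypical receptors bind chemokines without G protein signaling and carry or degrade them. In resting muscle the stromal cells between the fibers and the vessel walls are the main sources of the homeostatic ligands, such as CXCL12.

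Of the 12 ligands that could be tested, 4 fell in LLC muscle and 0 rose. Only 4 of the 19 receptors and 2 of the 4 atypical receptors could be tested. Of these, 2 receptors and 1 atypical receptor rose and 0 fell. Of all 12690 genes tested, 5.63% changed, 1.65% as higher and 3.99% as lower. Cxcr2, the main neutrophil chemokine receptor, rose 8.50-fold, and Ccr1, a receptor of monocytes and neutrophils, rose from 3 counts over the 4 Control libraries to 84 counts over the 6 LLC libraries. Ackr1, the Duffy antigen receptor of venular endothelium and red cells, rose 2.66-fold. The ligands that fell were Ccl21a (4.23-fold), Cxcl9 (4.04-fold), Ccl11 (2.72-fold) and Cxcl14 (2.62-fold). Cxcr2 and Ccr1 passed the filter on low counts through the LLC libraries alone, and Ccl21a and Cxcl9 through the Control libraries alone. For each of these the filter itself required a high level in that group only. The 5 ELR ligands of CXCR2 among the members had at most 4 counts together in any library of either group.

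The promoters of Cxcl9 and Cxcl14, ligands that fell, and of Cxcr2, the receptor that rose with the smallest adjusted p, are shown because factors that induce chemokine genes are known to act close to the start site. RefSeq windows of 300 bases (250 before and 50 after the start; GRCm38.p6) were held for 46 of the 60 members, in 53 windows, and for 6 of the 7 members that changed. Each was searched on both strands, with overlaps between motifs allowed, for NF-kB (GGNNTTTCC), STAT (TTCNNNGAA), AP-1 (TGANTCA), an interferon response element (GAAANNGAA), C/EBP (TTGCNNAA) and PU.1 (AGGAAGT). Capitals mark the matches, and each line runs 5′ to 3′ along the strand of the gene.
Cxcl9, chr5:92328030-92328329, minus strand: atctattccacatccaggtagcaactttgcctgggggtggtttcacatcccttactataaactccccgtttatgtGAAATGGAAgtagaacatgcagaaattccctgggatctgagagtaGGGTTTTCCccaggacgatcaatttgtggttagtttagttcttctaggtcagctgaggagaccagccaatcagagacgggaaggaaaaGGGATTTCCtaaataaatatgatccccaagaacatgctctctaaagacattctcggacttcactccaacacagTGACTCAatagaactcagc
Cxcl14, chr13:56296502-56296801, minus strand: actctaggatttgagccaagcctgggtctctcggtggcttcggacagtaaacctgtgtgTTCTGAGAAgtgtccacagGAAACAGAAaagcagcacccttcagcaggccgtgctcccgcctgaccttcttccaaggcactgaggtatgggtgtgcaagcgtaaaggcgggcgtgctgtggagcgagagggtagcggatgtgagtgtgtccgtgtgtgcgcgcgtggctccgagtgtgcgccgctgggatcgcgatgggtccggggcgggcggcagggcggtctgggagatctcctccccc
Cxcr2, chr1:74153744-74154043, plus strand: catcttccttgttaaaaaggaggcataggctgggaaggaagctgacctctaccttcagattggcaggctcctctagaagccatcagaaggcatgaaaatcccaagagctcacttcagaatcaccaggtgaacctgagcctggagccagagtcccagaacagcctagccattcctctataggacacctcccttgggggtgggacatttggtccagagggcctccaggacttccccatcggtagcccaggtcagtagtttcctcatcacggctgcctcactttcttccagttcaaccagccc

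The Cxcl9 window held NF-kB matches that began at -130 and -42 from the start, an interferon response match at -175 and an AP-1 match at 32. The Cxcl14 window held a STAT match at -191 and an interferon response match at -172. The Ccl21a window held 1 C/EBP match (TTGCCGAA at -227), and the windows of Cxcr2, Ccr1 and Ackr1 held 0 matches to the 6 motifs. Among all 32851 windows in the table, the NF-kB letters occurred in 5.82%, STAT in 8.30%, AP-1 in 7.81%, the interferon response element in 8.56%, C/EBP in 10.8% and PU.1 in 9.35%. Of the 53 member windows, 9 held the NF-kB letters, 4 STAT, 10 AP-1, 8 the interferon response element, 7 C/EBP and 9 PU.1. These are matches of letters only.

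Total counts ran from 16693209 to 21303084 per library, at which 3 counts, the smallest level taken as detected, equal 0.141 to 0.180 CPM, counts per 1000000 counts. This floor is on the raw library totals, while the levels of genes given below are scaled between libraries by TMM. Mitochondrial genes took 28.4 to 30.7% of counts in Control and 22.0 to 27.9% in LLC. LLC 1 stood apart from the other LLC libraries, with a chi-square per degree of freedom of 119 to 195 against them, whereas the other LLC pairs gave 8.37 to 60.7 and the Control pairs 3.90 to 8.67. The tissue label was borne out by 8 skeletal muscle fiber markers, which summed to 77303 to 120280 CPM per library, and 0 of the 8 passed the threshold described next. Libraries were made from RNA of whole muscle, and CPM are shares of the counted RNA, not amounts per muscle. Fewer cells of a type, less RNA per cell and a change in other RNA thus cannot be told apart in any comparison.

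Genes entered the test when at least 4 libraries held about 10 counts (0.523 CPM). The threshold was an adjusted p (edgeR's quasi-likelihood test, Benjamini-Hochberg) of 0.05 or less with at least a 1.5-fold change. It was passed by 715 of the 12690 genes tested. Of the 60 members, 18 entered the test and 7 were past the threshold, 3 higher and 4 lower, and 42 did not enter. Cxcr2, Ccr1 and Ccl28 entered through the LLC libraries alone, and Ccl21a and Cxcl9 through the Control libraries alone at 0.523 CPM or above, so for these 5 the filter itself required a high level in that group only. The median log2 fold change was -0.28 over the 18 members and 0.00 over all genes tested (0.0019). It was -0.45 over the 12 ligands.

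**Figure D1:**
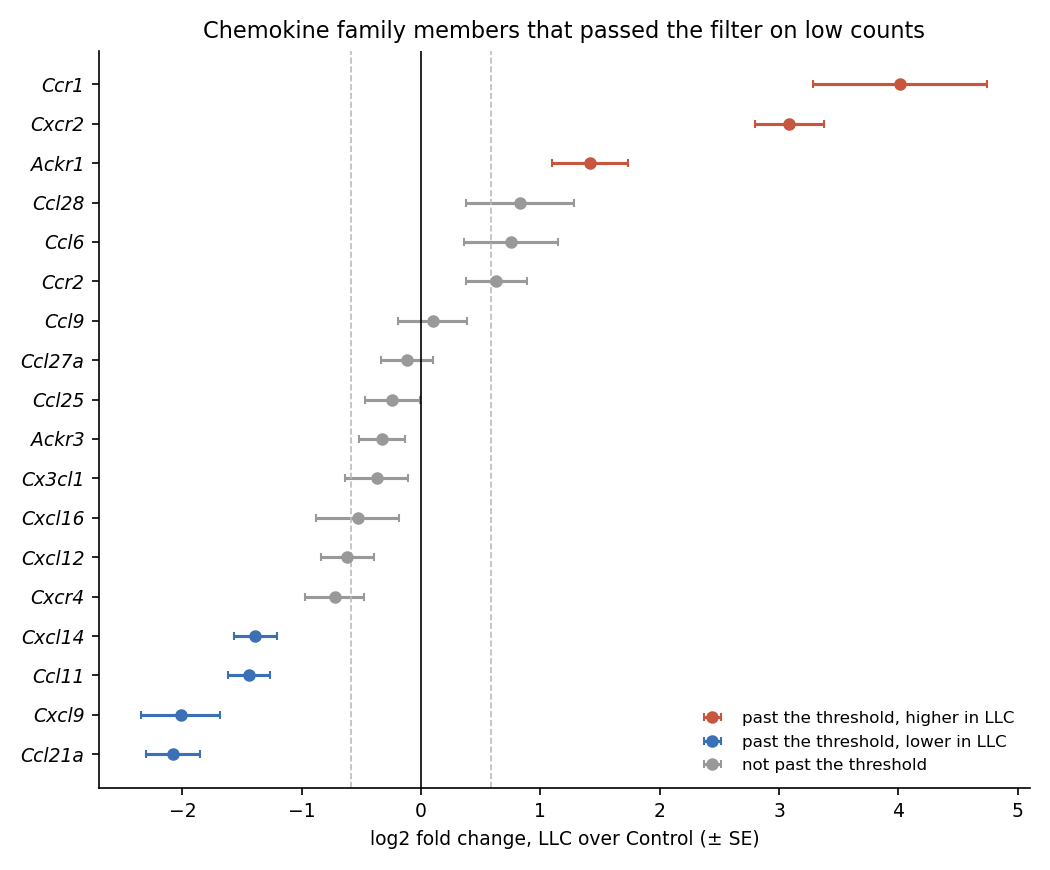
Log2 fold change of LLC over Control for the 18 members that entered the test, with bars of 1 SE and dashed lines at 1.5-fold. Red marks the 3 members past the threshold and higher in LLC, from 1.41 (Ackr1) to 4.01 (Ccr1), blue the 4 lower, and gray the 11 that did not pass.

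The groups of 8 tested members did not overlap, 3 with all LLC libraries above Control and 5 with all below. This was so for 16% of all genes tested, 6.4% above and 9.57% below. These 8 were the 7 members past the threshold and Cxcl12.

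Cxcr2 (ENSMUSG00000026180, chromosome 1, 74153989 to 74161246, mm10) was at 0.265, 0.247, 0.162 and 0.219 CPM in Control 1 to 4. In LLC it ran from 1.39 through a median of 1.81 to 2.97 CPM. Every LLC library lay above every Control library, LLC 4 was the highest, and the lowest LLC value was over 5 times the highest Control value. The log2 fold change was 3.09 ± 0.29 (SE; adjusted p = 0.000184, edgeR). Cxcr1, the neighboring receptor gene, had 0 counts in Control and 0 to 2 in LLC.

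Ccr1 (ENSMUSG00000025804, chromosome 9, 123962124 to 123968692) had 1, 0, 2 and 0 counts in the Control libraries and 10, 12, 5, 19, 29 and 9 in LLC 1 to 6. Its Control level was thus at or below the detection floor, and LLC 5 and LLC 4 held the most. In CPM the LLC libraries ran from 0.290 through a median of 0.596 to 1.44. The ratio of the scaled totals was 18.9 (95% counting interval 6.25 to 93.6, which covers counting error only), and the fitted log2 fold change was 4.01 ± 0.73 (SE; adjusted p = 0.00725, edgeR). Ccr1 lies in a run of receptor genes on chromosome 9, of which only Ccr1 and Ccr2 entered the test and only Ccr1 passed.

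Neutrophil markers moved with both receptors. The sum over 13 listed markers was 1.06 to 2.96 CPM in Control and 35.4 to 76.8 in LLC, and all 8 that could be tested rose. All 8 entered the test through the LLC libraries alone, so this count had to go 1 way. Among the defining markers Ly6g was at 0 in every Control library and reached 4 counts in LLC, S100a8 rose by 6.33 on the log2 scale, and Mpo had at most 2 counts. The part of these cells in the rise of Cxcr2 and Ccr1 was not tested. The 14 monocyte and macrophage markers summed to 28.5 to 43.5 CPM in Control and 26.0 to 43.6 in LLC, so the groups overlapped, with Ly6c2 and Chil3 higher, Mrc1 lower and 7 of the 10 tested not past the threshold. Ly6c2 and Chil3 also entered the test through the LLC libraries alone, so the filter required a high level in LLC only.

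Ccr2, the receptor of inflammatory monocytes, was at 0.636, 1.09, 1.08 and 0.657 CPM in Control and at 0.811 to 1.64 CPM in LLC with a median of 1.41. The groups overlapped, and Ccr2 did not pass (log2 fold change 0.63 ± 0.25, SE; adjusted p = 0.140, edgeR). Cxcr4, the receptor of CXCL12, was at 2.07, 2.86, 2.16 and 1.64 CPM in Control and 0.615 to 1.81 CPM in LLC, with a log2 fold change of -0.72 ± 0.25 (SE; adjusted p = 0.0974, edgeR). It was past the threshold in limma voom with sample quality weights (-0.75, adjusted p = 0.0474; 7.86% of all genes passed there), the only alternative of 19 in which it was.

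Ackr1 (ENSMUSG00000037872, chromosome 1, 173331886 to 173333750) was at 1.27, 1.28, 2.11 and 1.26 CPM in Control 1 to 4. In LLC it ran from 2.61 through a median of 3.23 to 7.10 CPM, the last in LLC 1. The LLC libraries all lay above Control, and LLC 1 and LLC 5 were the highest. The log2 fold change was 1.41 ± 0.32 (SE; adjusted p = 0.0221, edgeR), and without LLC 1 it was 1.17 (adjusted p = 0.00693). The call was lost on leaving out Control 1, Control 2, Control 4 or LLC 5, with adjusted p up to 0.0778. Its exons overlap those of Cadm3 on the same strand, so their reads may not be cleanly divided. Cadm3 itself was not past the threshold (-0.59 ± 0.24 on the log2 scale, SE; adjusted p = 0.144, edgeR).

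Endothelial markers summed to 247 to 327 CPM in Control and 258 to 299 in LLC. Of these 9 markers Selp and Sele, adhesion molecules of activated venules, rose by 2.72 and 5.00 on the log2 scale, Kdr fell by 1.13, and 6 did not pass. Sele, with at most 1 count in Control, entered the test through the LLC libraries alone. Platelet and red cell markers summed to 59.1 to 84.1 CPM in Control and 89.7 to 145 in LLC, with Hbb-bs, Hbb-bt and Alas2 higher and 0 of the 6 tested lower. The part of either in the rise of Ackr1 was not tested.

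Ackr3, a scavenger of CXCL12, was at 6.41, 9.88, 12.0 and 8.76 CPM in Control and 5.79 to 9.92 in LLC, and it did not pass (-0.33 ± 0.19, SE; adjusted p = 0.279, edgeR). The other atypical receptors did not enter the test. Ackr2, a scavenger of inflammatory CC chemokines, had 7, 6, 14 and 4 counts in Control and 9, 4, 1, 1, 1 and 0 in LLC 1 to 6. Ackr4, a scavenger of CCL19, CCL21 and CCL25, had 1, 8, 2 and 4 counts in Control against 2, 1, 0, 0, 0 and 0 in LLC. Both were at or below 1 count in at least 4 of the 6 LLC libraries, and the groups overlapped for both genes. With no filter on low counts neither was past the threshold (adjusted p = 0.225 for Ackr2 and 0.0991 for Ackr4, edgeR).

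**Figure D2:**
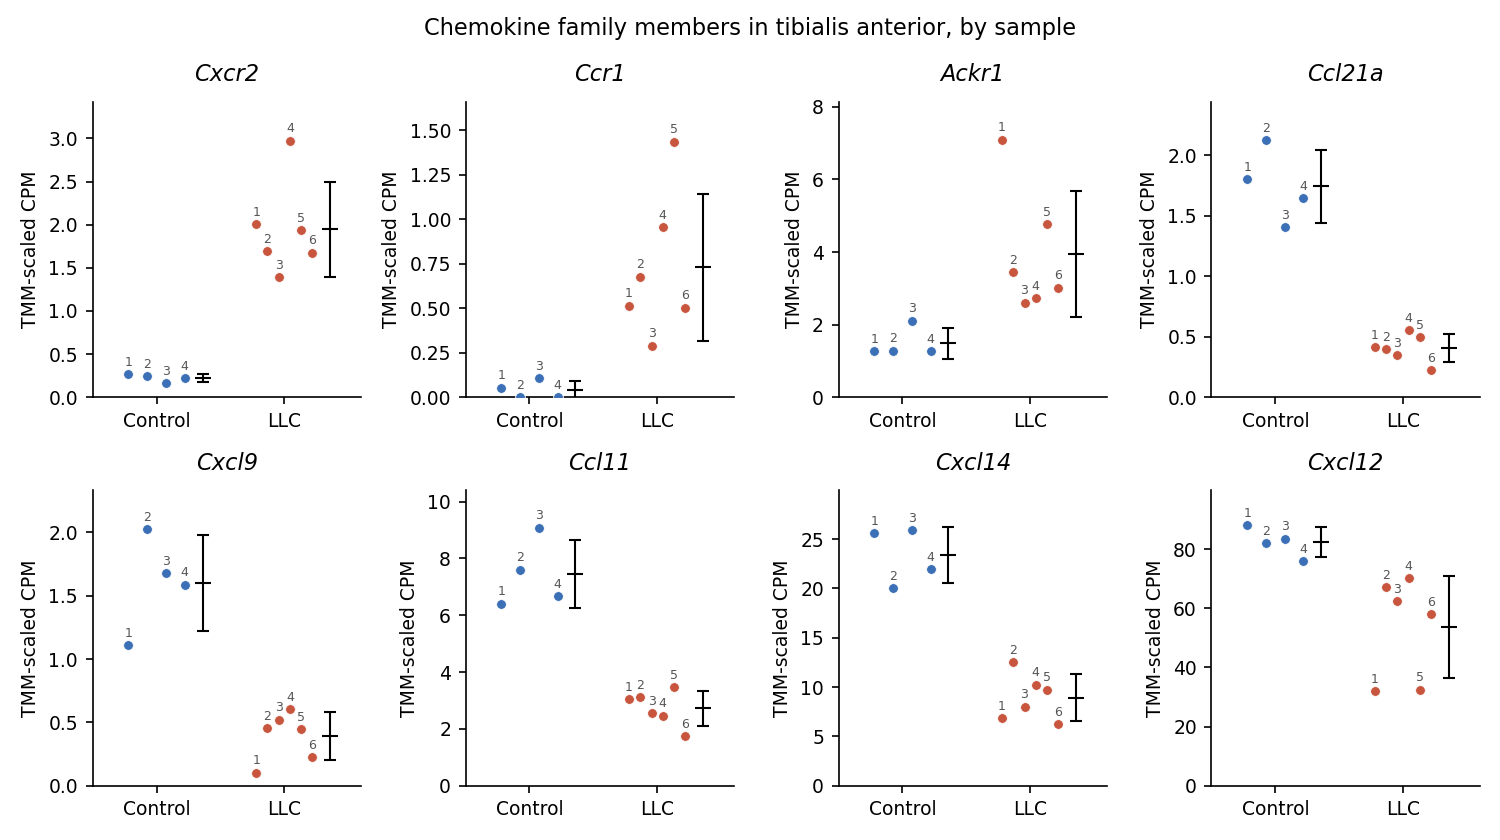
TMM-scaled CPM of the 7 members past the threshold and of Cxcl12 in each of the 4 Control (blue) and 6 LLC (red) libraries, numbered by replicate, with mean and SD in black and each axis starting at 0. Cxcr2, Ccr1 and Ackr1 lie above Control in every LLC library, and the 5 ligands lie below it, with LLC 1 and LLC 5 lowest for Cxcl12 (31.9 and 32.5 CPM).

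Ccl21a (ENSMUSG00000094686, chromosome 4, 42772860 to 42773993) encodes a form of CCL21, which draws CCR7-bearing dendritic cells and T cells to lymphatic vessels and lymph nodes. It was at 1.80, 2.12, 1.41 and 1.64 CPM in Control and ran from 0.224 through a median of 0.403 to 0.554 CPM in LLC. No LLC library reached 0.6 CPM, and LLC 6 was the lowest. The log2 fold change was -2.08 ± 0.23 (SE; adjusted p = 0.000393, edgeR). Of its 100-base exonic words, 50.3% also occur in the near copies Ccl21b, Gm10591, Gm13304 and Gm21541, so reads could be split among them or dropped. These copies held at most 3 counts in any library, which does not show how many ambiguous reads were dropped.

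Cxcl9 (ENSMUSG00000029417, chromosome 5, 92321347 to 92328079), an interferon-gamma-induced ligand of CXCR3, was at 1.11, 2.02, 1.68 and 1.59 CPM in Control. In LLC it ran from 0.103 through a median of 0.449 to 0.605 CPM. LLC 1 and LLC 6 were the lowest, with 2 and 4 counts. The log2 fold change was -2.01 ± 0.33 (SE; adjusted p = 0.00375, edgeR), and without LLC 1 it was -1.81. Its neighbor Cxcl10 had 1, 2, 0 and 4 counts in Control and 10, 30, 3, 4, 4 and 3 in LLC 1 to 6, and did not enter the test. LLC 2 alone held 30 of the 54 LLC counts, and with no filter the log2 fold change was 2.32 ± 0.88 (SE; adjusted p = 0.156, edgeR). The fitted changes of the interferon-induced pair thus had opposite signs, that of Cxcl10 not past the threshold. Exons of Cxcl10 overlap those of Art3 on the opposite strand.

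Ccl11 (ENSMUSG00000020676, chromosome 11, 82057823 to 82062955), eotaxin, was at 6.41, 7.60, 9.08 and 6.68 CPM in Control and ran from 1.73 through a median of 2.79 to 3.47 CPM in LLC. The groups lay far apart, since the highest LLC value was about 3 CPM below the lowest Control value. The log2 fold change was -1.44 ± 0.18 (SE; adjusted p = 0.000692, edgeR). Ccl24, eotaxin-2, had 4, 7, 5 and 11 counts in Control and 1, 2, 0, 2, 1 and 1 in LLC, again without overlap. It was below the filter, and without the filter its log2 fold change was -2.39 ± 0.54 (SE; adjusted p = 0.0210, edgeR), while DESeq2, in which 7.62% of all genes passed, gave an adjusted p of 0.0150. Ccl26, the other eotaxin gene, and Ccr3, the eotaxin receptor, had 0 counts in every library. Among 4 eosinophil markers Epx and Ear1 were also at 0, and the sum was at most 0.106 CPM.

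Ccl11 belongs to a run of 6 CC ligand genes on chromosome 11. The others, the monocyte attractants Ccl2, Ccl7 and Ccl12 together with Ccl8 and Ccl1, each had at most 6 counts in any library. Ccl2, the main CCR2 ligand, had 5, 0, 2 and 1 counts in Control and 2, 4, 1, 2, 6 and 4 in LLC.

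Cxcl14 (ENSMUSG00000021508, chromosome 13, 56288643 to 56296551), a conserved homeostatic ligand of epithelia and stroma, was at 25.6, 20.05, 25.9 and 22.0 CPM in Control. In LLC it ran from 6.26 through a median of 8.86 to 12.5 CPM. LLC 6 and LLC 1 were the lowest and LLC 2 the highest, well under the lowest Control library. The log2 fold change was -1.39 ± 0.18 (SE; adjusted p = 0.000885, edgeR).

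Fibro-adipogenic progenitor and fibroblast markers moved with the 4 ligands that fell. The 9 markers summed to 342 to 420 CPM in Control and 163 to 200 in LLC, and 7 of them fell, among them Pdgfra (-1.40), Dcn (-1.36), Lum (-2.54) and Col1a1 (-3.08 on the log2 scale), while Ly6a rose. The 4 satellite cell markers were lower too, at 8.82 to 9.90 CPM in Control and 4.99 to 6.95 in LLC. Of these, 3 were tested and 2, Pax7 and Myf5, fell. The part of the cells of either list in the falls of Ccl11, Cxcl14, Ccl21a and Cxcl9 was not tested. B cell markers were near the floor apart from Ighm, which fell by 1.45, and the 12 T and NK cell markers summed to under 0.7 CPM in every library, with 0 able to be tested.

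Cxcl12 (ENSMUSG00000061353, chromosome 6, 117168535 to 117181367), which retains hematopoietic and progenitor cells through CXCR4, was the member with the most reads. It was at 88.0, 82.0, 83.6 and 75.9 CPM in Control and ran from 31.9 through a median of 60.2 to 70.1 CPM in LLC. All LLC libraries lay below Control, but LLC 1 (31.9) and LLC 5 (32.5) lay far below the other 4 (57.9 to 70.1). These were also the libraries with the lowest mitochondrial shares (22.0 and 22.9%), whose part in these values was not tested. It did not pass, with a log2 fold change of -0.62 ± 0.22 (SE; adjusted p = 0.109, edgeR), and without LLC 1 it was -0.50 (adjusted p = 0.0694). Under voom, which gives less weight to libraries that stand apart, it was -0.43 (adjusted p = 0.0186), short of a 1.5-fold change.

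The remaining 7 tested ligands overlapped between the groups and none was past the threshold. Cxcl16, a membrane-bound ligand of CXCR6, was at -0.53 ± 0.35 on the log2 scale (SE), and Cx3cl1, or fractalkine, at -0.37 ± 0.26 (SE). Their adjusted p-values were 0.325 and 0.366 (edgeR). Ccl25, a thymic and gut ligand of CCR9 (-0.24, adjusted p = 0.505), and Ccl27a, a skin ligand of CCR10 (-0.12, adjusted p = 0.738), were close to 0. Exons of Ccl27a overlap those of Il11ra1 on the opposite strand. Opposite-strand overlaps were also found for Ccl25 (Elavl1) and Cxcl16 (Zmynd15) among the tested members. Among the rest they were found for Cxcl10 (Art3), Ackr4 (Acad11), Cxcr5, Ccr9, Cx3cr1 and Xcl1. LLC 1 held 1.23 CPM of Ccl27a, against 2.66 to 3.11 in the other LLC libraries.

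The macrophage ligands of CCR1, Ccl6 and Ccl9, overlapped between the groups. Ccl6 was at 0.900, 0.938, 2.27 and 0.822 CPM in Control and 1.16 to 4.11 CPM in LLC with a median of 1.84 (log2 fold change 0.75 ± 0.40, SE; adjusted p = 0.233, edgeR). Ccl9 was at 0.794, 0.889, 1.84 and 1.15 CPM in Control and 0.695 to 1.78 CPM in LLC (0.10 ± 0.29, SE; adjusted p = 0.844, edgeR). Control 3 was the highest Control library and LLC 5 the highest LLC library for both genes. Ccl28, a mucosal ligand of CCR10, did not pass either (0.83 ± 0.45 on the log2 scale, SE; adjusted p = 0.246, edgeR). It had 5, 11, 8 and 6 counts in Control and 2, 16, 11, 16, 15 and 19 in LLC, so that LLC 1 was the lowest of all 10 libraries. Without LLC 1 Ccl28 was past the threshold (1.07, adjusted p = 0.0238, edgeR), and the members past the threshold then numbered 8. Under voom Ccl28 passed as well (1.04, adjusted p = 0.0234), and the members past the threshold numbered 9.

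Levels were set between genes per kilobase of exon, with all annotated exons of a gene merged. An order between genes depends on these lengths, 8176 bases for Cxcl12 and 1827 for Cxcl14, and which transcript forms were present was not tested. In CPM without length Cxcl12 was the higher, at a Control mean of 82.4 against 23.4. Per kb, Cxcl14 (12.8 ± 1.56 CPM per kb, SD, n = 4) and Cxcl12 (10.1 ± 0.612) led the tested members in Control. Next were Ccl11 (6.88 ± 1.12), Ackr3 (2.77 ± 0.696) and Ccl21a (2.00 ± 0.346). The intervals of 1 SD of Ackr3 and Ccl21a overlapped, and those of the first 3 were apart. In LLC Cxcl12 (6.57 ± 2.10, SD, n = 6) and Cxcl14 (4.89 ± 1.29) overlapped in SD, and Ackr1 (2.81 ± 1.23), Ccl11 (2.52 ± 0.566) and Ackr3 (2.20 ± 0.489) could not be ordered beyond their spread. The levels of Ccl21a and Ccl27a, with 50.3% and 26.5% of their words in other genes, may be too low on this scale. The lowest receptor of the 18 in Control was Ccr1, at 0.0142 ± 0.0182 CPM per kb.

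Summed over all 60 members, the level was 144 ± 8.91 CPM (SD) in the 4 Control libraries and 95.7 ± 16.1 CPM in the 6 LLC libraries, with ranges of 134 to 155 and 73.9 to 115. Cxcl12 made up 57.3% of the sum in Control and 56.1% in LLC, so the sum mostly follows that gene.

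Ligands and their receptors were then set side by side. The ELR ligands Cxcl1, Cxcl2, Cxcl3, Cxcl5 and Cxcl15 together had 0 to 3 counts per library in Control and 1 to 4 in LLC, while Cxcr1 and Cxcr2 went from 3 to 5 counts to 24 to 61. Ppbp, an ELR ligand outside the symbol rule, had 1 to 4 counts in Control and 1 to 6 in LLC. For CCR1 the ligands Ccl3, Ccl5, Ccl6, Ccl7 and Ccl9 had a summed level of 2.56 ± 1.22 CPM in the 4 Control libraries (SD) and of 3.41 ± 1.36 CPM in the 6 LLC libraries, and the groups overlapped. The receptor rose on both axes, while the summed ligands overlapped between the groups.

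On the CCR3, CCR7 and CXCR3 axes the mean ligand sum was lower in LLC and the receptor was barely detected. The CCR3 ligands summed to 7.80 ± 1.17 CPM over the 4 Control libraries (mean, SD) against 2.79 ± 0.619 over the 6 of LLC, with Ccr3 at 0 in all libraries. The CCR7 ligands went from 1.90 ± 0.240 to 0.468 ± 0.140 CPM by the same measure, through Ccl21a, with 0 to 3 counts of Ccr7 in Control and 0 to 7 in LLC. The CXCR3 ligands summed to 1.69 ± 0.399 CPM in Control and 0.883 ± 0.633 in LLC, where LLC 2, through Cxcl10, reached 2.15 CPM and overlapped Control. Cxcr3 had at most 3 counts in Control and 1 in LLC.

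**Figure D3:**
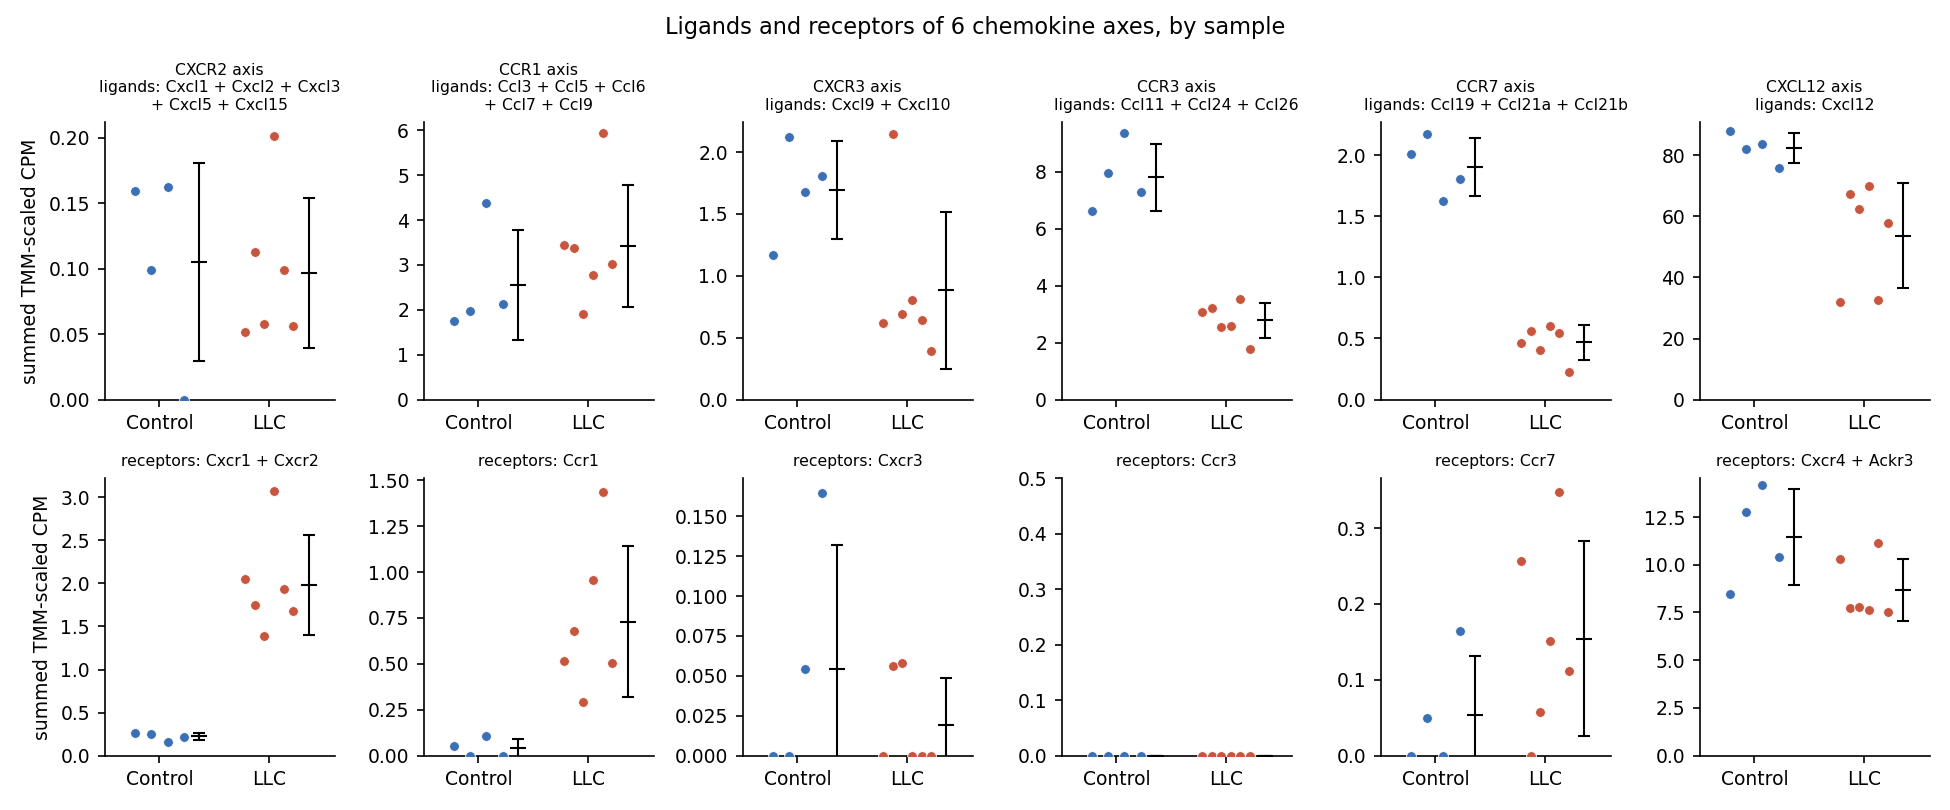
Summed TMM-scaled CPM of the ligands (top) and receptors (bottom) of 6 chemokine axes in the 4 Control (blue) and 6 LLC (red) libraries, with mean and SD in black; each panel has its own linear axis from 0. The 5 CXCR2 ligands named above their panel stay at or below 0.202 CPM in every library. Cxcr1 and Cxcr2 together reach 1.39 to 3.07 CPM in LLC. The CCR3 ligands are lower in LLC while Ccr3 is at 0 throughout.

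Of the 42 members that did not enter the test, 25 were ligands, 15 receptors and 2 atypical receptors. A count of 0 in every library was found for 11 of them, the ligands Ccl20, Ccl21b, Ccl26, Ccl27b, Cxcl3, Cxcl5, Cxcl15 and Cxcl17 and the receptors Ccr3, Ccr8 and Ccr1l1. For 9 of these a count of 0 allows a level of up to 0.141 to 0.180 CPM before TMM scaling, depending on the library. For Ccl21b and Ccl27b, with 100.0% and 97.9% of their 100-base exonic words in other genes, the 0 sets no such limit. A further 15 had a highest count of 1 to 3 in any library. They included the inflammatory ligands Ccl3, Ccl4 and Ccl5, the CCR4 ligands Ccl17 and Ccl22, the XCR1 ligand Xcl1, the neutrophil ligand Cxcl2, and the lymphocyte receptors Ccr4, Ccr6, Cxcr3 and Cxcr6. For these 15 a difference between the groups was not detectable at this depth.

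Another 11 members had a highest count of 4 to 9 and 5 had 10 or more. Among the latter, Cxcl13, the B cell attractant, had 3, 2, 4 and 2 counts in Control and 15, 6, 1, 4, 5 and 0 in LLC 1 to 6, with LLC 1 far above the rest. Xcr1, the receptor of cross-presenting dendritic cells, had 6, 7, 14 and 6 counts in Control and 9, 6, 4, 5, 7 and 2 in LLC. Cxcr5, the receptor of CXCL13, had 3 to 4 counts in Control and 2 to 8 in LLC. The dendritic cell and T cell receptor Ccr7, the monocyte receptor Cx3cr1, and Ccr9 and Ccr10 each overlapped between the groups at 8 counts or fewer. Without the filter Ccl24 was the only one of the 42 past the threshold, at which 3.64% of 21983 genes were called.

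**Figure D4:**
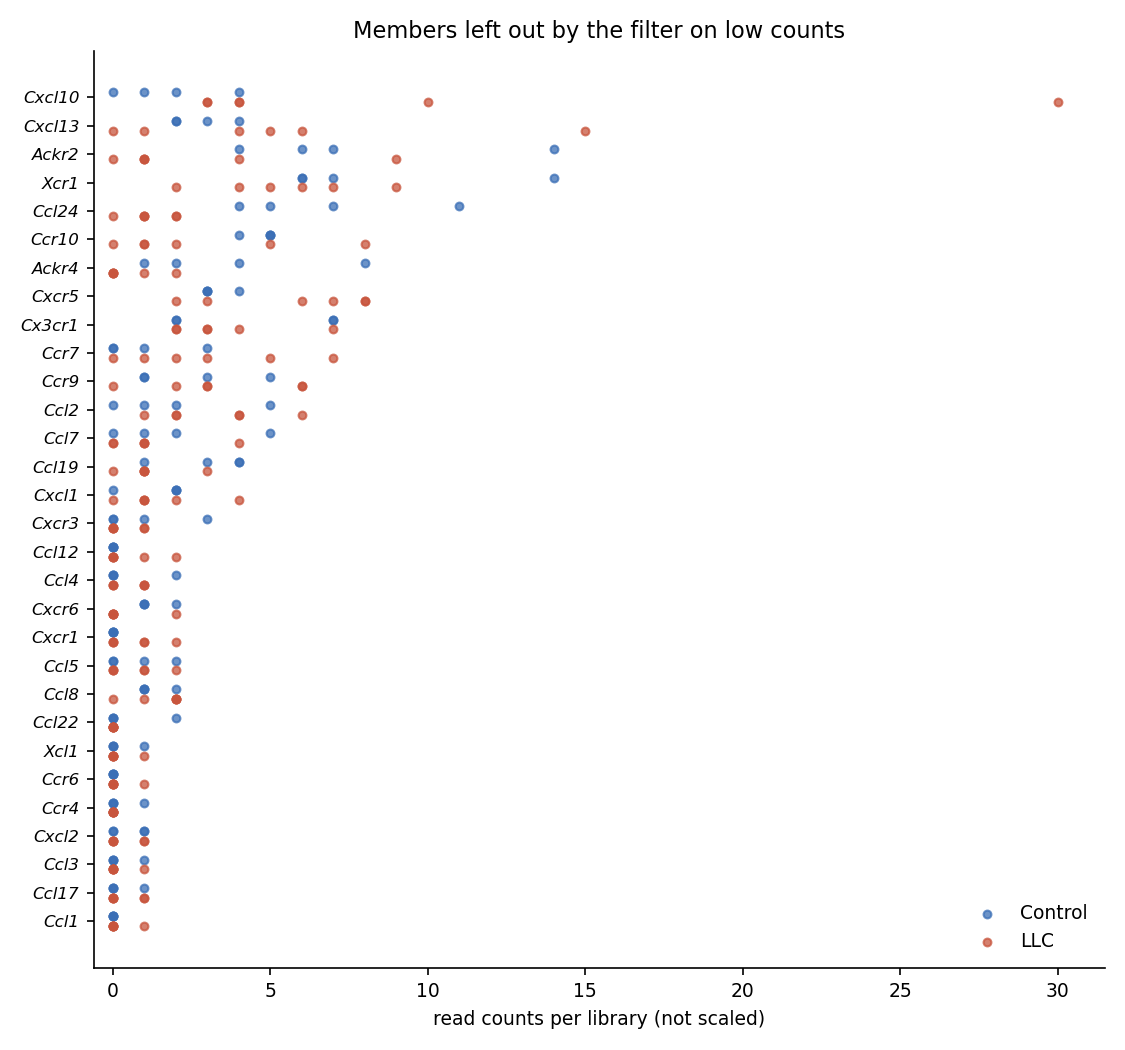
Read counts per library, not scaled, of 30 members that did not enter the test and had at least 1 count, in the 4 Control (blue) and 6 LLC (red) libraries. Most lie below 10 counts in every library. Ccl24 is the one with the groups apart (4 to 11 counts in Control, 0 to 2 in LLC), and the 30 counts of Cxcl10 come from LLC 2.

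Genes that act with chemokines were read from 5 pathway lists. Of all 12690 genes tested, 5.63% were past the threshold, 1.65% higher and 3.99% lower. Of 8 chemokine-system genes outside the symbol rule, 6 were tested, 3 fell and 0 rose. These were Pf4, platelet factor 4 (-1.10 ± 0.27 on the log2 scale, SE), Cmklr1, the chemerin receptor (-1.02 ± 0.21), and Rarres2, which encodes chemerin (-0.61 ± 0.14). The median of the list was -0.53. The call of Pf4 was lost without Control 2, 3 or 4 or LLC 2, 3 or 6, that of Rarres2 without any 1 Control library or LLC 3 or 6, and that of Cmklr1 without Control 3 or 4. Mif did not pass, at 27.6 ± 2.78 CPM (SD, 4 Control libraries) and 27.4 ± 3.82 CPM (6 LLC libraries).

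Of 28 genes of receptor signaling, 24 were tested, 2 rose and 0 fell, beside 1.65% of all genes higher and 3.99% lower. Pik3r5, a regulatory subunit of PI3K-gamma, rose by 1.48 ± 0.33 and Rac2, a small GTPase of hematopoietic cells, by 1.79 ± 0.44 (log2, SE), and the list's median was 0.05. Both calls were lost without Control 3 or 4, and that of Rac2 also without Control 1, Control 2 or LLC 5. Of the 24, 4 entered the test through the LLC libraries alone, Pik3r5 and Rac2 among them. For these the filter required a high level in LLC only. Of 18 genes of heparan sulfate presentation, all were tested, 3 fell and 0 rose. They were the core proteins Sdc2 (-1.13 ± 0.18) and Hspg2 (-0.60 ± 0.16) and the 6-O-endosulfatase Sulf2 (-1.05 ± 0.23), with a list median of -0.28. Sdc2 passed in all 10 fits with 1 library left out, whereas Sulf2 was lost without Control 3 or 4. Hspg2 was lost in 8 of the 10 (all but those without LLC 2 or LLC 4), and also under upper-quartile scaling and voom.

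Of 33 genes that induce or regulate chemokine genes through NF-kB and related paths, 29 were tested, 4 rose and 0 fell. Il1b, a cytokine of activated myeloid cells, rose by 3.81 ± 0.68 on the log2 scale (SE), from at most 2 counts in Control to at most 44 in LLC. Of the 29, 3 entered the test through the LLC libraries alone, Il1b among them. For these the filter required a high level in LLC only. Bcl3 (1.59 ± 0.33), Tnfrsf1b (0.91 ± 0.17) and Stat3 (0.74 ± 0.15) rose as well, and the list's median was 0.46. The call of Bcl3 was lost without Control 1, 2 or 4, and that of Stat3 under voom. The cytokine genes Tnf, Il6 and Ifng were too low to be tested. Of 18 proteases and inhibitors that trim or release chemokines, 10 were tested, with 2 higher and 3 lower. Mmp8 and Mmp9, stored in neutrophil granules, rose by 4.30 ± 0.57 and 1.97 ± 0.51, whereas Dpp4 (-1.89 ± 0.32), Mmp2 (-2.01 ± 0.11) and Plau (-1.26 ± 0.17) fell, and Mmp8 also stands in the neutrophil list above. Mmp8 and Mmp9 entered the test through the LLC libraries alone and Dpp4 through the Control libraries alone. For each the filter thus required a high level in that group only. Mmp9 overlapped between the groups, and its call was lost without Control 1, 2 or 4 or LLC 2, 4, 5 or 6. The share of each list past the threshold can be read against 5.63% of all genes, 1.65% higher and 3.99% lower.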

How the data were processed

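Paired-end reads of stranded total RNA libraries were obtained in 1 lane. Per the labels and the study's methods, the authors mapped reads to mm10 with TopHat and made the deposited counts, whole numbers of reads per gene that are not normalized, with HTSeq at default settings. RefSeq genes are named there, but the tables list Ensembl identifiers, so the annotation release is not given in the sources used here. If the default strand setting did not match the library kit, the counts of all genes would be affected, those of overlapping genes among them. Whether it matched was not tested.

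Of 39179 identifiers, 37607 matched a symbol in GENCODE M21 (GRCm38, the same build), which supplied coordinates and gene types. Genes were kept by filterByExpr (count minimum 10) and scaled by TMM, and LLC was compared with Control by edgeR 4.0.16 (R 4.3.3), group only, two-sided. CPM are TMM-scaled. SEs were derived from the F statistic. Alternatives were limma voom with quality weights (limma 3.58.1), DESeq2 1.42.0, other scalings, filters, a replicate block and each library left out. A further alternative kept the main fit and dropped the fold limit. The edgeR, DESeq2 and voom comparisons of LLC with Control were tested on simulated data. The members, gene lists, named genes (the members, and each listed gene past the threshold) and promoter motifs were chosen with earlier results of these data known. No extraction or library batch is given. The values of 1 member are not reported here.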

Additional observations from a re-analysis of the deposited data

Results flagged for a closer look

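In 36 groups of members' values (18 tested members in Control and in LLC) a library that stood far from the rest of its group, by Dixon's criterion at 95%, was looked for, and 4 were found where chance gives about 1 in 20 groups. Ackr1 was at 2.11 CPM in Control 3 and at 1.26 to 1.28 in the other Control libraries. Ccl6 was at 2.27 CPM in Control 3, against 0.822 to 0.938 in the other Control libraries, and at 4.11 CPM in LLC 5, against 1.16 to 2.03 in the other LLC libraries. Ccl27a was at 1.23 CPM in LLC 1 and at 2.66 to 3.11 in the other LLC libraries. The part of any technical factor in these values was not tested.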

How the results depend on the processing

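Of 336 values (the log2 fold change of each tested member under each alternative in which it could be fitted), 318 kept their direction and their side of the threshold. The alternative with no fold limit reuses the main fit, so its values could not differ and only a call could. Ccl11, Ccl21a and Cxcr2 did so in every alternative in which they were fitted. Members past the threshold numbered 7, and 3 with at least 10 counts in every sample (1 higher, Ackr1, and 2 lower, Ccl11 and Cxcl14), a filter that removes genes low in 1 group. With that filter the lists gave 0 for receptor signaling, 2 for NF-kB and 2 for proteases. DESeq2 gave 7 for NF-kB. The replicate numbers belong to different animals and same-numbered libraries did not deviate together (correlations -0.081 to 0.126 over 4 pairs), so they do not pair the samples; with the replicate block, 3 members passed (1 higher, 2 lower), with Ackr1 at 1.34 (adjusted p = 0.194), Ccr1 at 3.70 (0.120), Cxcl14 at -1.34 (0.0656) and Cxcl9 at -1.96 (0.0672), and the lists gave 0 outside the symbol rule, 0 for receptor signaling, 1 for heparan sulfate, 1 for NF-kB and 2 for proteases. Over all genes 112 passed with the block, 475 with at least 10 counts in every sample and 1112 in DESeq2, against 715. Leaving out 1 library gave 415 to 966 genes, 6 to 8 members, 2 to 4 higher and 4 lower, 0 to 3 outside the symbol rule, 0 to 3 for receptor signaling, 1 to 3 for heparan sulfate, 3 to 7 for NF-kB and 4 to 5 for proteases. The direction turned only for genes near 0. Ccl27a (-0.12) was at 0.0144 under voom and ran from -0.168 to 0.0341 on leaving out 1 library, above 0 without LLC 1. Ccl9 (0.10) was at -0.0517 under voom and -0.0398 with the block, and ran from -0.0475 to 0.400 on leaving out 1 library, below 0 without Control 1, Control 2 or LLC 5. Upper-quartile scaling moved the median of all genes by -0.0346, the most of the 3 scalings tried. Why these alternatives differ was not tested beyond the filter's own construction.

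Depth limits 42 of the 60 members, and differences in those with 3 counts or fewer were not detectable. Intervals and floors cover counting error only, since reads amplified by PCR are not independent molecules. Control holds 4 animals, and 4 of the 7 members past the threshold, Cxcr2, Ccr1, Cxcl9 and Ccl21a, had at most 12 counts in any library of the lower group. Strain, age and day of tumor growth differ between the labels and the design text. Whole-muscle RNA does not tell which cells hold a transcript.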
